A study of Rattus norvegicus with 6 samples.

Results

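The genes described here mark smooth muscle cells and pericytes, the contractile cells of the blood vessel wall. They were chosen by name as Acta2, Myh11, Cnn1, Tagln, Des, Actg2, Smtn, Lmod1, Abcc9 and Rgs5, and every non-control probe whose gene name in the scanner files equals one of these was read. That gave 12 probes for 9 of the 10 genes, out of 41012 non-control probes, and Acta2 was not analysed here. The probes come from 6 arrays of synovial tissue taken from the hind leg ankle joints of male rats, 8 weeks old. The triptolide group (3 arrays, TP in the labels) had adjuvant arthritis and received triptolide at 0.4 mg/kg daily for 14 days. The arthritis group (3 arrays, AA in the labels) had the same adjuvant arthritis and received saline. Both groups were injected with 0.1 ml of Freund's complete adjuvant daily for 18 days, per the labels, and no healthy group was analysed here. Strain is not given in the labels, nor whether the numbered replicates came from separate animals, so each p-value reflects how these samples vary, and some of that spread may be technical.

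Smooth muscle cells ring arteries, arterioles and veins, and contract when myosin pulls on actin filaments. Pericytes sit on capillaries and the smallest venules and share part of this contractile machinery. In synovium both cell types lie in the vascular tissue beneath the lining. In RNA of whole tissue their genes can report on the vessel wall, but not on it alone, since Des and Abcc9 are also active in skeletal muscle. Here fewer cells of a type and less RNA per cell cannot be told apart.

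Between 25850 and 28249 of 43379 non-control spots per array were well above background, and none was saturated. The precision is limited by the small number of arrays, 3 in each group, and by the wide spread that single arrays gave some genes. Arthritis 1 to 3 and triptolide 1 were on slide 1 and triptolide 2 and 3 on slide 2, so slide and group are largely confounded. Triptolide 2 and arthritis 2 stood apart from the other arrays. Skeletal muscle markers were highest in arthritis 2 for 18 of 18 tested genes, and nerve and Schwann cell markers were highest in triptolide 2 for 11 of 11. Of all tested probes, 18.9% were highest in arthritis 2 and 24.4% in triptolide 2. Prg4, the lubricin gene of the synovial lining, stood at 6.55, 3.52 and 6.74 in triptolide 1 to 3, against 6.81, 4.27 and 7.37 in arthritis 1 to 3, lowest on the same pair of arrays. Col1a1, the type I collagen gene of fibroblasts, ranged by 0.48 over the 6 arrays. Levels are log2 of the spot intensity relative to the 75th percentile of the array, so that 0 is this percentile and a step of 1 is a doubling.

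Myh11, Smtn and Abcc9 each had a pair of probes that read separate stretches of the transcript. Their sequences are shown because agreement between the probes of a gene bears on whether its pattern belongs to the gene. The probe of Actg2 is added because the actin genes resemble each other closely. All are 60 bases long, written 5′ to 3′ from the scanner files, with no part in capitals.
Myh11 probe A_44_P489468: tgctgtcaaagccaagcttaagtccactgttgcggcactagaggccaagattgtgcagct
Myh11 probe A_44_P274021: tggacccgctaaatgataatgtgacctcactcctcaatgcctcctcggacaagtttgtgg
Smtn probe A_44_P1028692: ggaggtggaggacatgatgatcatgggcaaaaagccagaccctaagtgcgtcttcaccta
Smtn probe A_44_P989357: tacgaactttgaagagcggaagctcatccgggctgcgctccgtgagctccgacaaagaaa
Abcc9 probe A_44_P455479: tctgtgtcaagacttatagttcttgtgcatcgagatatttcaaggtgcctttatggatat
Abcc9 probe A_42_P691339: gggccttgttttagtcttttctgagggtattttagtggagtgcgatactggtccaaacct
Actg2 probe A_42_P638128: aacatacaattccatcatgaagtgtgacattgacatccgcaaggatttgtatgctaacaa

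In coordinates of the rn4 rat assembly, as the headers give them, the Myh11 probes lie at chr10:769508-769567 and chr10:719479-719538 on the forward strand, the first 50029 bases downstream of the second. On the reverse strand, the Smtn probes lie at chr14:84160797-84160856 and chr14:84169175-84169234, and those of Abcc9 at chr4:180167060-180167119 and chr4:180171700-180171759. The single probes lie at chr8:21219991-21220050 for Cnn1, chr8:48902736-48903116 for Tagln, chr9:74645149-74645208 for Des, chr4:117735561-117735620 for Actg2, chr13:48360886-48360945 for Lmod1 and chr13:85480542-85482176 for Rgs5. The probes of Tagln and Rgs5 span 381 and 1635 bases of genome with 60 bases of sequence, so each crosses at least 1 intron. The position of the probes relative to exons and untranslated parts was not analysed here.

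Triptolide 2 carried by far the highest level of most of these genes. For 6 of 9 genes triptolide 1 and 3 lay below every arthritis array, as they did for 12% of all tested probes, while for 16% they lay above. Of the 6 genes, Lmod1 was not well above background on triptolide 1 and 3, and the second probe of Myh11 did not show this position. Of the 9 genes, each represented by its brightest tested probe, 7 were highest in triptolide 2, where 24.4% of all tested probes were. The genes also varied more between arrays than most probes: 8 of 9 spanned at least 2 on the log2 scale, as 9.24% of all tested probes did. In these 7 genes triptolide 2 lay 1.10 to 3.91 above the next array on the log2 scale. A lead of at least 1 was found for 1.88% of all tested probes. The other 2 genes, Des and Abcc9, were highest in arthritis 2, as 18.9% of all probes were, and second highest in triptolide 2. That triptolide 2 was high in smooth muscle markers was known when the genes were chosen, so these counts are no independent evidence of it.

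**Figure D1:**
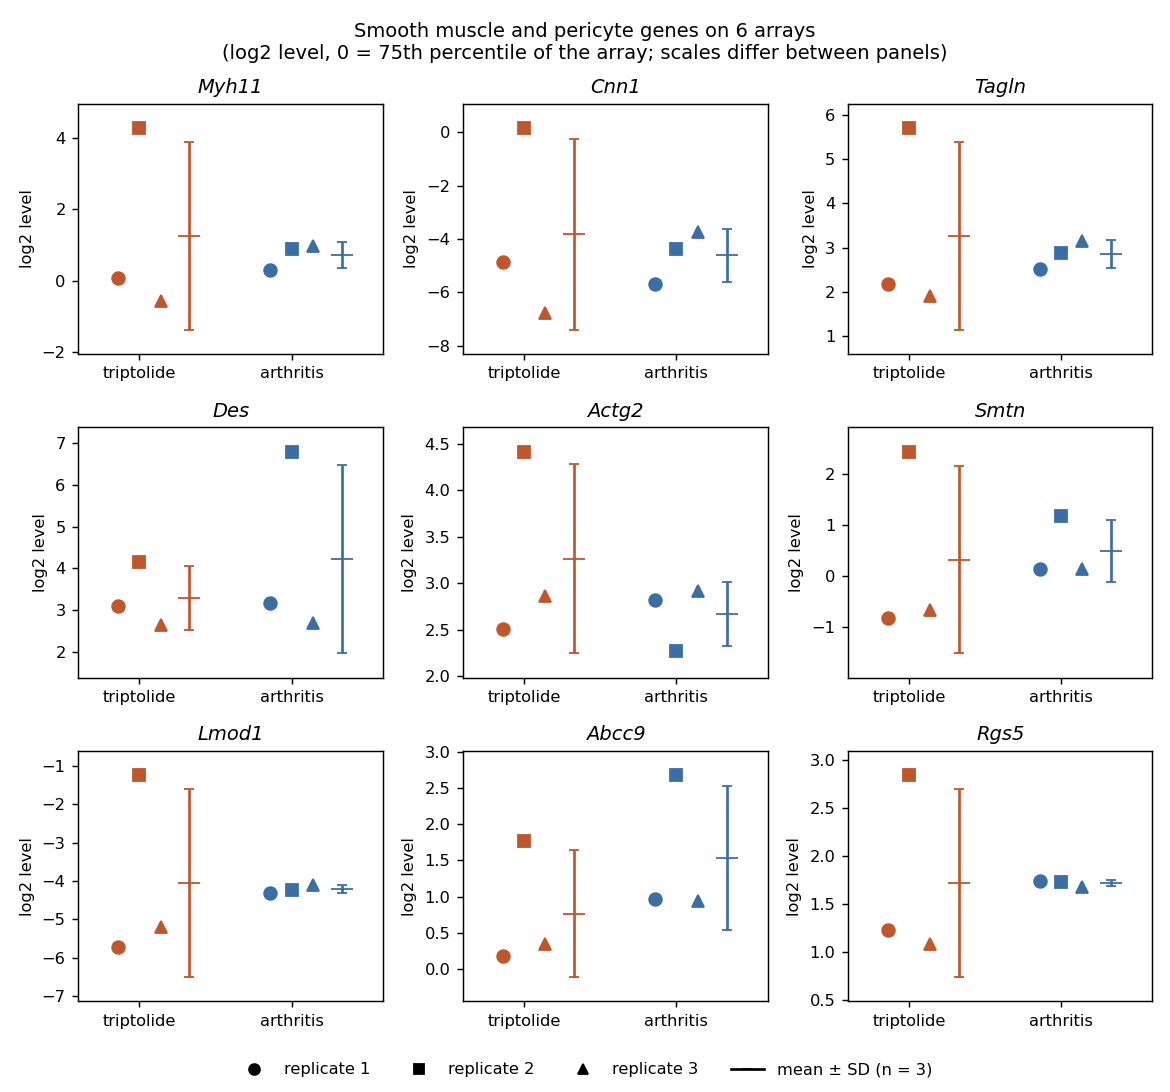
Log2 level of 9 smooth muscle and pericyte genes (vertical axes, 0 is the 75th percentile of the array) in 3 triptolide arrays (left, orange) and 3 arthritis arrays (right, blue), with the symbol giving the replicate number and the bars the mean ± SD (n = 3). The triptolide 2 square stands above every other point for 7 genes, and the arthritis 2 square is highest for Des and Abcc9.

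No gene differed between triptolide and arthritis in the limma fit over all 25777 tested probes. Adjusted p lay between 0.994 and 1.000 for the 11 tested probes, and 0 of 9 genes passed an adjusted p under 0.05, as did 0% of all probes. At an unadjusted p under 0.05 there were 0 of 9 genes and 3.24% of all probes, and in 0 of 9 genes did the groups separate without overlap, against 8.64% of all probes. The means were higher with triptolide for 5 genes and lower for 4, where 53.9% of all probes were higher. The median log2 difference was 0.16 over the genes and 0.021 over all 21366 genes tested. That 0.16 is the value of Lmod1, which was not well above background on triptolide 1 and 3. Over the 7 genes well above background on all 6 arrays the median was -3.4e-04.

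Among the genes of the contractile filaments, Myh11 encodes the smooth muscle myosin heavy chain, the motor of the cell. It stood at 0.065, 4.28 and -0.56 in triptolide 1, 2 and 3, against 0.31, 0.90 and 0.98 in arthritis 1, 2 and 3. Triptolide 2 was thus 9.85-fold above arthritis 3, the next array, while triptolide 1 and 3 lay below all 3 arthritis arrays. The means were 1.26 ± 2.63 with triptolide and 0.73 ± 0.37 in arthritis (SD, n = 3 each), a log2 difference of 0.53 (SE 1.23; limma adjusted p = 0.994). In linear terms the spot had 19.4 times the 75th percentile of its array in triptolide 2, and 0.68 to 1.05 times in triptolide 1 and 3 and 1.24 to 1.97 times in arthritis.

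The second probe of Myh11 was also highest in triptolide 2, at 2.26, but its other 5 levels lay close together. These were -0.055 and 0.040 in triptolide 1 and 3, against -0.022, -0.29 and -0.20 in arthritis 1 to 3. So both probes placed triptolide 2 on top, and the lower position of triptolide 1 and 3 was seen with the first probe and not with the second.

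Actg2 encodes the gamma actin of enteric and vascular smooth muscle. Its levels were 2.50, 4.42 and 2.87 in triptolide 1 to 3, against 2.82, 2.27 and 2.91 in arthritis 1 to 3. Apart from triptolide 2, which was 2.84-fold above the next array, the groups lay on top of each other. The log2 difference was 0.59 (SE 0.51; limma adjusted p = 0.994), and 0.015 without triptolide 2. Reads of related actins by this probe were not tested. Its lowest level was in arthritis 2, the array in which Acta1, the skeletal muscle actin gene, was highest at 8.37.

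Cnn1, Tagln, Smtn and Lmod1 encode proteins that bind the actin filament. Tagln, or transgelin, is an abundant early marker of smooth muscle. It stood at 2.18, 5.70 and 1.91 in triptolide 1 to 3, against 2.51, 2.89 and 3.15 in arthritis 1 to 3. Triptolide 2 was 5.86-fold above arthritis 3, and the other triptolide arrays lay below the arthritis arrays. The difference was 0.41 (SE 0.99).

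Cnn1 encodes calponin, which restrains the myosin motor. It was well above background on 1 triptolide array and 2 arthritis arrays. Its levels were -4.87, 0.17 and -6.76 in triptolide 1 to 3, against -5.71, -4.39 and -3.74 in arthritis 1 to 3. Triptolide 2 exceeded arthritis 3, the brightest arthritis array, 15.0-fold. The order of triptolide 1, triptolide 3 and arthritis 1 cannot be read, since those spots were not well above background.

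Lmod1 encodes leiomodin, which starts new actin filaments in smooth muscle. It was measured at -1.25 in triptolide 2 and between -4.30 and -4.10 in the 3 arthritis arrays. In triptolide 1 and 3 the spot was not well above background, at -5.71 and -5.20. The arthritis arrays agreed closely for this gene, with an SD of 0.10 (n = 3), against an SD of 2.44 with triptolide (n = 3).

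Smtn encodes smoothelin, found in cells able to contract. Its levels were -0.82, 2.44 and -0.66 in triptolide 1 to 3, against 0.13, 1.19 and 0.14 in arthritis 1 to 3. It was high in triptolide 2 and, to a lesser degree, in arthritis 2. The second probe gave the same order at the top, with -0.87 in triptolide 2 and -1.94 in arthritis 2, and stood at -4.78, not well above background, in triptolide 1 and at -4.18 in triptolide 3, against -3.53 and -3.50 in arthritis 1 and 3. The log2 differences were -0.16 (SE 0.90) and -0.29 (SE 1.07) for the 2 probes, the second of them 0.033 with normexp and quantile normalization.

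**Figure D2:**
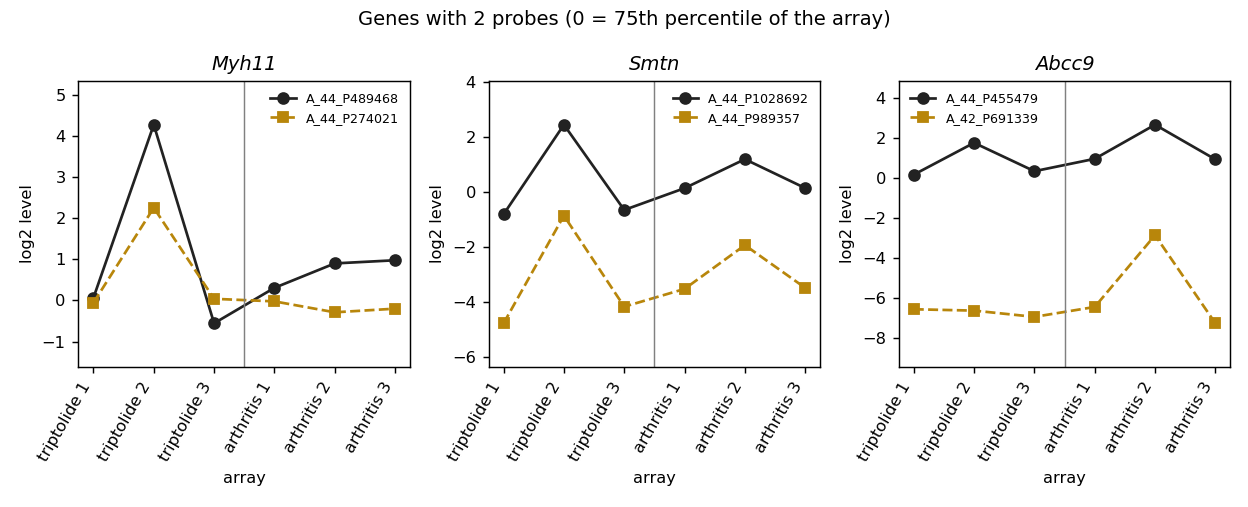
Log2 level (vertical axes, 0 is the 75th percentile of the array) on each of the 6 arrays for the 2 probes of Myh11, Smtn and Abcc9, with triptolide arrays left of the grey line, arthritis arrays right of it, and lines that only join the points of 1 probe. Both Myh11 and both Smtn probes peak in triptolide 2, and both Abcc9 probes peak in arthritis 2.

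Des encodes desmin, the intermediate filament of smooth, skeletal and heart muscle. Its levels were 3.08, 4.15 and 2.63 in triptolide 1 to 3, against 3.16, 6.80 and 2.68 in arthritis 1 to 3. Arthritis 2 was 6.29-fold above triptolide 2, and triptolide 2 came before the remaining 4 arrays. The difference was -0.93 (SE 1.11), and 0.37 without arthritis 2. The skeletal muscle marker mean, relative to its mean over all arrays, was 8.03 in arthritis 2, -3.73 in arthritis 1 and -3.89 in arthritis 3. In triptolide 1 to 3 it was 0.96, -2.94 and 1.58. Some of these markers, such as Myh1 and Ckm, were well above background on only 3 and 4 arrays, so the low means are not firm levels. The part of skeletal muscle in the level of Des was not tested.

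The pericyte genes of the set are Rgs5 and Abcc9, though both are also active in vascular smooth muscle. Rgs5 encodes a regulator that ends G protein signalling. It varied least of the 9 genes, over 1.76 on the log2 scale, and had the smallest lead of triptolide 2 among the 7 genes highest there, 1.10. It stood at 1.22, 2.84 and 1.08 in triptolide 1 to 3, against 1.73, 1.73 and 1.68 in arthritis 1 to 3. The arthritis arrays spread by 0.030 (SD, n = 3), and the triptolide arrays by 0.98 (SD, n = 3). Triptolide 2 was above the arthritis arrays and triptolide 1 and 3 below them, which left equal means of 1.71 in both groups and a log2 difference of -3.4e-04 (SE 0.47), turned to 0.019 by quantile normalization.

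Abcc9 encodes the sulfonylurea receptor subunit of potassium channels that relax vascular muscle, and skeletal muscle also uses it. Its levels were 0.18, 1.77 and 0.35 in triptolide 1 to 3, against 0.97, 2.67 and 0.94 in arthritis 1 to 3. Arthritis 2 was 1.87-fold above triptolide 2. The log2 difference was -0.76 (SE 0.62; limma adjusted p = 0.994), and -0.19 without arthritis 2. The upstream probe of Abcc9 was well above background on arthritis 2 and on no other array, at -2.85 there and at -6.43 or lower elsewhere, and was not tested. The transcript is known to be spliced into forms with different ends in skeletal and smooth muscle, and which form each probe reads is not annotated in the files.

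Since triptolide 2 was highest for 7 of the 9 genes, the comparison without it is given beside the full one. The array was set aside because of these genes' own values, and leaving it out lowers the triptolide mean of each of them. Leaving it out also lowers the SE of each but Des, for Myh11 from 1.23 to 0.30. The counts that follow are therefore no independent evidence of lower levels with triptolide. Without triptolide 2, 8 of 9 genes had lower means with triptolide and the median log2 difference was -1.20, against 0.025 over all genes. That median is the value of Cnn1, which was not well above background on triptolide 1 and 3. For 6 genes (Myh11, Tagln, Smtn, Lmod1, Abcc9 and Rgs5) triptolide 1 and 3 lay below all 3 arthritis arrays, as they did for 12% of all tested probes, while for 16% they lay above all 3. Myh11, Tagln, Smtn, Lmod1 and Rgs5 had an unadjusted p under 0.05, where 3.1% of all probes did in this direction. These p-values rest on the smaller spread left without triptolide 2. The 3.1% covers probes that were not selected by their values on that array, so the shares cannot be compared directly. No gene passed the adjustment over all probes (adjusted p = 0.747 for each of the 5), and Lmod1 was not well above background on either of these triptolide arrays. The differences were -0.97 (SE 0.30) for Myh11, -0.81 (SE 0.24) for Tagln, -1.22 (SE 0.37) for Smtn, -1.24 (SE 0.21) for Lmod1 and -0.56 (SE 0.14) for Rgs5. The second probe of Myh11 went the other way, at 0.16 (SE 0.16). Triptolide 1 and 3 lay below every arthritis array for 5 of 17 other contractile smooth muscle genes and 4 of 14 other pericyte genes. Among markers of other cell types, this held for 4 of 11 nerve and Schwann cell genes and 5 of 14 endothelial genes. It held for 0 of 18 skeletal muscle, 1 of 14 synovial fibroblast, 0 of 8 adipocyte and 0 of 12 macrophage genes. The part of other cell types in this position was not tested.

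Within slide 1, which holds 1 triptolide array, the represented probes of all 9 genes had a lower value with triptolide, as 49.1% of all probes did, and the median was -0.67. The second probe of Myh11 was higher there, by 0.12 (SE 0.23). There 1 of 9 genes, Lmod1, had an unadjusted p under 0.05, against 2.21% of all probes in this direction, and none passed the adjustment. That fit takes its spread from the 3 arthritis arrays and assumes that the lone triptolide array varies alike, and Lmod1 was not well above background on it. With slide as a block the differences are the same, since triptolide 2 and 3 then add nothing to the comparison.

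**Figure D3:**
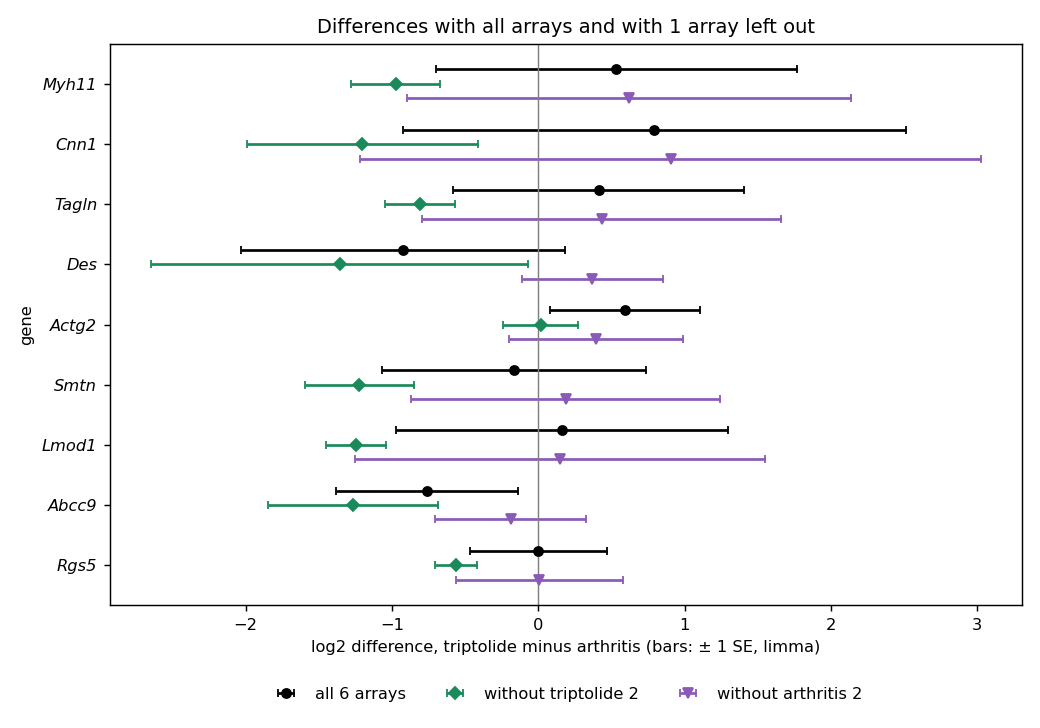
Log2 difference, triptolide minus arthritis, with ± 1 SE from limma (horizontal axis) for each of the 9 genes (vertical axis), from all 6 arrays (circles), without triptolide 2 (diamonds) and without arthritis 2 (triangles). With all arrays the values lie on both sides of 0, without triptolide 2 all but Actg2 lie below it, and without arthritis 2 Des turns to 0.37.

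Other genes of the smooth muscle apparatus followed the same arrays. Of 20 further contractile genes listed, 17 were tested, 0 passed the adjusted or the unadjusted threshold, and the means were higher with triptolide for 10 and lower for 7, with a median difference of 0.12. Triptolide 2 was highest for 12 of them, where 24.4% of all tested probes were highest. Of these 12, Vcl and Myl6 ranged by only 0.49 and 0.61 over the 6 arrays. Relative to its mean over the 6 arrays, the list averaged 1.01 in triptolide 2 and 1.12 in arthritis 2. Myl9, the regulatory light chain of smooth muscle myosin, stood at 4.81, 8.22 and 4.58 in triptolide 1 to 3, against 5.21, 5.39 and 5.57 in arthritis 1 to 3. Csrp1, a LIM protein of smooth muscle, stood at 3.69, 5.10 and 3.57 in triptolide 1 to 3, against 3.58, 3.31 and 3.64 in arthritis 1 to 3. Both showed 1 high triptolide array beside 5 arrays that lay within 1 of each other. Flna, the actin cross-linker filamin A, had the smallest unadjusted p of the list, with a difference of 0.57 (SE 0.29), and was likewise highest in triptolide 2.

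The other 5 contractile genes, Ppp1r12b, Pdlim3, Pdlim7, Hspb6 and Ldb3, were highest in arthritis 2, as Des and Abcc9 were. Pdlim3 and Ldb3 encode proteins of the Z-disc of striated muscle, and Hspb6 a small heat shock protein of all muscle types. Pdlim3 stood at 0.48, 2.69 and 1.26 in triptolide 1 to 3, against -1.01, 7.03 and 0.15 in arthritis 1 to 3. Hspb6 stood at 1.09, 0.33 and 0.66 in triptolide 1 to 3, against -0.17, 6.12 and -0.48 in arthritis 1 to 3. Ldb3 and Pdlim7 reached 5.59 and 3.70 in arthritis 2, against 0.91 and 0.16 in triptolide 2. These 4 had the widest ranges of the list, and arthritis 2 was also the array with the high skeletal muscle markers, whose part in them was not tested.

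Contractile genes are switched on by serum response factor, which binds CArG boxes with its partner myocardin. Of 16 listed regulators, 10 were tested and 0 passed either threshold, with a median difference of 0.13. Srf itself varied little, standing at 3.81, 4.33 and 3.81 in triptolide 1 to 3, against 3.73, 4.24 and 3.75 in arthritis 1 to 3. Its higher levels were in triptolide 2 and arthritis 2, the arrays in which the genes above peaked. The range of Srf, 0.61, was below the median range of 0.76 over all tested probes. A link between Srf and the levels of these genes was not tested. Gata6, with the widest range of the regulators and a factor of vascular smooth muscle, stood at -2.53, -0.28 and -2.18 in triptolide 1 to 3, against -2.62, -2.66 and -2.01 in arthritis 1 to 3. Hey2, a Notch target of arterial cells, had the smallest unadjusted p of the regulators, at -2.43, -1.29 and -2.77 in triptolide 1 to 3, against -2.60, -3.31 and -2.71 in arthritis 1 to 3. Like Gata6 it was highest in triptolide 2. Mrtfa, a cofactor of serum response factor, was measured at 3.66, 3.78 and 3.85 in triptolide 1 to 3, against 3.55, 3.47 and 3.62 in arthritis 1 to 3. Its groups did not overlap, yet the difference of 0.21 (SE 0.14; limma adjusted p = 0.994) did not pass. Klf4, which opposes the contractile programme, also separated without overlap but in the other direction, at 3.93, 3.39 and 3.97 in triptolide 1 to 3, against 4.08, 4.01 and 4.05 in arthritis 1 to 3 (difference -0.29, SE 0.20). These are 2 of 10 regulators, where 8.64% of all probes separated in either direction.

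Promoter windows of 300 bases around the start site were at hand in the RefSeq table (build GRCr8) for 6 of the 9 genes, Cnn1, Des, Actg2, Smtn, Abcc9 and Rgs5. The CArG box was found in 0 of these 6, also with 1 base of its core changed, against 1.64% and 9.42% of all 33469 windows. The box reads the same on both strands, and its absence from these windows says nothing about sites elsewhere.

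Of 15 other pericyte genes, 14 were tested and 0 passed either threshold, with 9 higher and 5 lower with triptolide and a median difference of 0.074. Triptolide 2 was highest for 10 of the 14, where 24.4% of all tested probes were highest. Kcnj8, the channel pore that pairs with the Abcc9 subunit, stood at 1.70, 2.97 and 1.71 in triptolide 1 to 3, against 2.07, 2.13 and 2.15 in arthritis 1 to 3. Unlike Abcc9, it was no higher in arthritis 2 than in arthritis 3. Mcam, the adhesion molecule CD146 of pericytes and endothelium, was measured at 2.89, 4.59 and 2.56 in triptolide 1 to 3, against 3.69, 2.94 and 2.82 in arthritis 1 to 3. Rgs4, a relative of Rgs5, stood at 1.71, 2.86 and 1.33 in triptolide 1 to 3, against 2.10, 2.26 and 1.88 in arthritis 1 to 3. As with Rgs5, triptolide 2 lay above the arthritis arrays and triptolide 1 and 3 below them. P2ry14, a receptor for sugar nucleotides, ran the other way, lowest in triptolide 2 at -1.12 and highest in triptolide 1 at 0.89, against -0.76 at most in arthritis.

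Markers of other cell types moved with triptolide 2 as well. Relative to each list's mean over the 6 arrays, the 9 smooth muscle and pericyte genes averaged -0.87, 2.09 and -1.11 in triptolide 1 to 3, against -0.45, 0.46 and -0.12 in arthritis 1 to 3. Nerve and Schwann cell markers averaged -0.74, 2.31 and -1.06 in triptolide 1 to 3, against 0.12, -0.88 and 0.25 in arthritis 1 to 3. Endothelial markers were highest in triptolide 2 for 14 of 14 genes, where 24.4% of all tested probes were highest. They averaged -0.17, 0.75 and -0.37 in triptolide 1 to 3, against 0.016, -0.17 and -0.057 in arthritis 1 to 3. Vwf, von Willebrand factor, reached 4.41 in triptolide 2, against 2.21 to 2.73 on the other 5 arrays. Synovial fibroblast markers averaged -0.34 in triptolide 2 and -0.43 in arthritis 2, and macrophage markers -0.51 in triptolide 2 and -0.42 in arthritis 2, the lowest arrays for both lists. The part of tissue makeup in the levels of these genes was not tested.

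**Figure D4:**
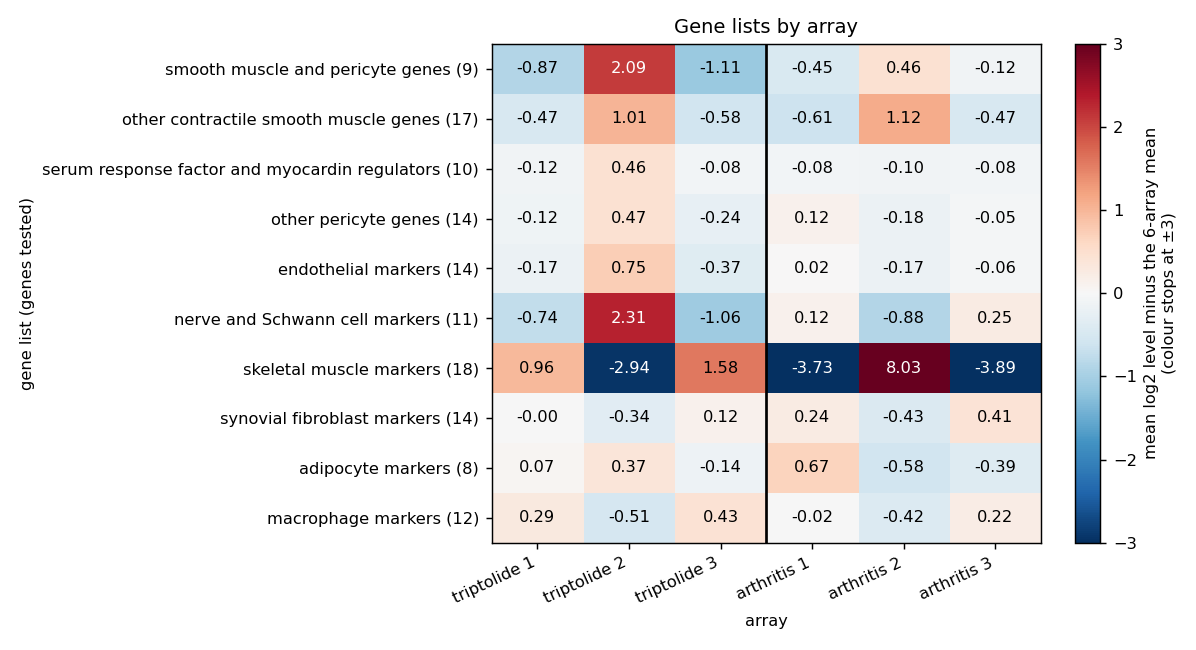
Mean log2 level of each gene list relative to its own mean over the 6 arrays, as coloured cells with values, for the 3 triptolide arrays (left of the black line) and the 3 arthritis arrays (right). The 9 smooth muscle and pericyte genes (2.09) and the nerve and Schwann cell markers (2.31) are highest in triptolide 2, and skeletal muscle markers (8.03) in arthritis 2.

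Among 11694 other genes with a settled name, those closest in pattern to Myh11, Rgs5 and Des were found from the root mean square difference of levels over the 6 arrays, each gene taken relative to its own mean. Among the nearest to Myh11 were Plekhb1, Celf4, Kcna1, Fbxl22 and Sbspon, at distances of 0.18 to 0.34. Kcna1 encodes a voltage-gated potassium channel of nerve cells. Of the other smooth muscle and pericyte genes, Tagln lay within this range at 0.32. Lmod1 lay outside it at 0.42, and Des was farthest at 1.81. The 6 nearest to Rgs5 were Thsd7a, Hrct1, Mapk8ip1, Lims2, Prph and Epas1, at 0.055 to 0.12. Prph encodes peripherin, the intermediate filament of peripheral nerve, and Epas1 a hypoxia-inducible factor abundant in endothelium. Among the nearest to Des were Masp1, Rxrg, Gstm7, Smarcd3 and Slc2a4, at 0.10 to 0.24, of which Slc2a4 encodes the insulin-responsive glucose transporter of muscle and fat.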

How the data were processed

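Total RNA of each sample was labelled with Cy3 and hybridised to a 1-colour rat array, as the labels' protocols describe. The authors' deposited scanner files hold spot intensity, background-subtracted and detrended within each array but not normalized between arrays. The scanner software was Agilent Feature Extraction, version 10.7.3.1 per the file headers, whereas the submitters' processing notes name 9.1. The deposited table of the whole series holds 167 rows and 0 probes of these genes, and was not used.

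Flagged spots were left out, log2 intensity minus the 75th percentile of each array was taken, and spots of a probe were averaged. The filter kept 25777 of 41012 probes, those above background on 3 or more of the 6 arrays. For these the difference of triptolide minus arthritis was fitted by lmFit and eBayes of limma 3.58.1 (R 4.3.3) and adjusted by Benjamini-Hochberg over all tested probes, after the script was tested on simulated data. Gene names were updated through RefSeq accession (18019 probes), symbol (3178) or synonym (402), and 19413 kept the file's name. The genes and lists were chosen with earlier results of these data known. By rule, all probes of the 9 genes are reported, with genes from the 6 nearest in pattern to each of Myh11, Rgs5 and Des, and some of these are not reported here. Of the other lists, the 4 genes with the widest range and the 2 with the smallest p were eligible to be named, of which some are given. Myl9, Vcl, Myl6, Srf, Klf4, Kcnj8, Acta1, Col1a1 and Ppp1r12b fall outside this and were chosen after their values were seen. Alternatives were background correction, normalization, the filter, slide, replicate block, muscle covariate, array weights, leaving out each array and averaging the probes of a gene.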

Additional observations from a re-analysis of the deposited data

How the results depend on the processing

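No gene and no probe passed an adjusted p under 0.05 with limma under any of the 16 other settings of the fit, where unadjusted p under 0.05 was reached by 619 to 2591 probes. The median difference of the genes, 0.16, ranged from -1.20 (without triptolide 2) to 0.96 with an array left out, and was -0.67 when slide was a block and also within slide 1, -0.62 with array weights and -3.4e-04 over the 7 genes well above background on all 6 arrays. Of 175 values of single probes under other settings, 31 changed sign. With an array left out the ranges were -1.69 to 0.37 for Des, -1.20 to 2.26 for Cnn1, -0.81 to 1.09 for Tagln, -0.97 to 1.44 for Myh11, -1.22 to 0.41 and -1.49 to 0.47 for the probes of Smtn, -1.24 to 0.99 for Lmod1 and -0.56 to 0.32 for Rgs5. Blocking on slide and using slide 1 alone both put Cnn1 at -0.26, Tagln at -0.67, Myh11 at -0.66, Lmod1 at -1.50 and Actg2 at -0.17. With array weights Cnn1 was at -1.06, Tagln at -0.58, Myh11 at -0.70 and Lmod1 at -0.85. Quantile normalization put Rgs5 at 0.019, and with normexp it put the second Smtn probe at 0.033. Array weights were lowest for arthritis 2 and triptolide 2 (0.23 and 0.28). The cause of these shifts was not tested. Same-numbered arrays deviated together at r of -0.16, -0.13 and 8.3e-04 across probes, no array correlated best with its own number, and the replicate block (median difference 0.16, 1066 probes at an unadjusted p under 0.05, against 835 without it) is therefore not read as a pairing. The deposited value table gave no value for these genes. Spots not well above background limit what can be said of Cnn1, Lmod1, the second Smtn probe and the upstream Abcc9 probe. They also limit the medians of 0.16 and -1.20, which are the values of Lmod1 and Cnn1, and the low skeletal muscle marker means.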
